A study of Mus musculus with 6 samples.

Results

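Leucine, isoleucine and valine, the branched-chain amino acids, are broken down in mitochondria by a shared start followed by separate branches. An aminotransferase first turns each amino acid into a branched-chain keto acid, and a large dehydrogenase complex then commits the keto acid to oxidation. The leucine branch ends in acetyl-CoA and acetoacetate, and the isoleucine and valine branches pass through propionyl-CoA into the citrate cycle. Fat cells are known to use this carbon for energy and for fatty acid synthesis, and brown and beige fat cells take up branched-chain amino acids as fuel. The 10 genes described here encode enzymes of this route: the aminotransferase Bcat2, the dehydrogenase subunits Bckdha, Bckdhb and Dbt, the leucine enzymes Ivd, Mccc1, Mccc2 and Auh, and the propionyl-CoA carboxylase subunits Pcca and Pccb. They were picked by gene symbol, each matched 1 of the 45808 gene lines of the count table, and all 10 passed the filter on low counts.

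The RNA came from 6 libraries of wild-type (WT) mouse stromal-vascular cells, the mixed fraction of fat tissue that holds fat cell precursors, taken from inguinal fat pads of male mice (age 8 weeks) and cultured. The sources used here give no strain. Day 0 was the confluent culture with no induction. Day 2 followed 2 days with rosiglitazone (1 µM), T3 (1 nM), insulin (850 nM), IBMX (0.5 mM), dexamethasone (5 µM) and indomethacin (125 µM), a mix that drives precursors towards beige fat cells. For the days up to day 6 the medium held only rosiglitazone, T3 and insulin, at these doses. Each day had 2 libraries, numbered 76 and 77, with 22522221 to 29458374 reads counted in genes. Levels are CPM, counts relative to library size after TMM scaling, and means carry the SD over n = 2 libraries. They are described as biological replicates in the design text, and no source used here says whether mice or cultures were separate, so p-values cover only the spread seen among these libraries, which may be technical.

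In each of the 10 genes, RNA was higher at day 6 than at day 0, by 3.02-fold for Auh up to 16.4-fold for Bcat2, where 35.9% of all genes tested were called higher and 35.1% lower (edgeR, adjusted p under 0.05). Together the genes took 0.204% and 0.182% of all gene counts at day 6, against 0.0333% in each library of day 0. Day 2 lay between, with 0.0598% and 0.0572%. The rise was uneven at day 2, when 8 genes were higher than at day 0, Pccb was lower and Auh passed no test, beside 33.6% of all genes called higher and 33.6% lower. The cultures are mixed and the RNA is bulk, so a change in the share of a cell type and a change in RNA per cell cannot be told apart.

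**Figure D1:**
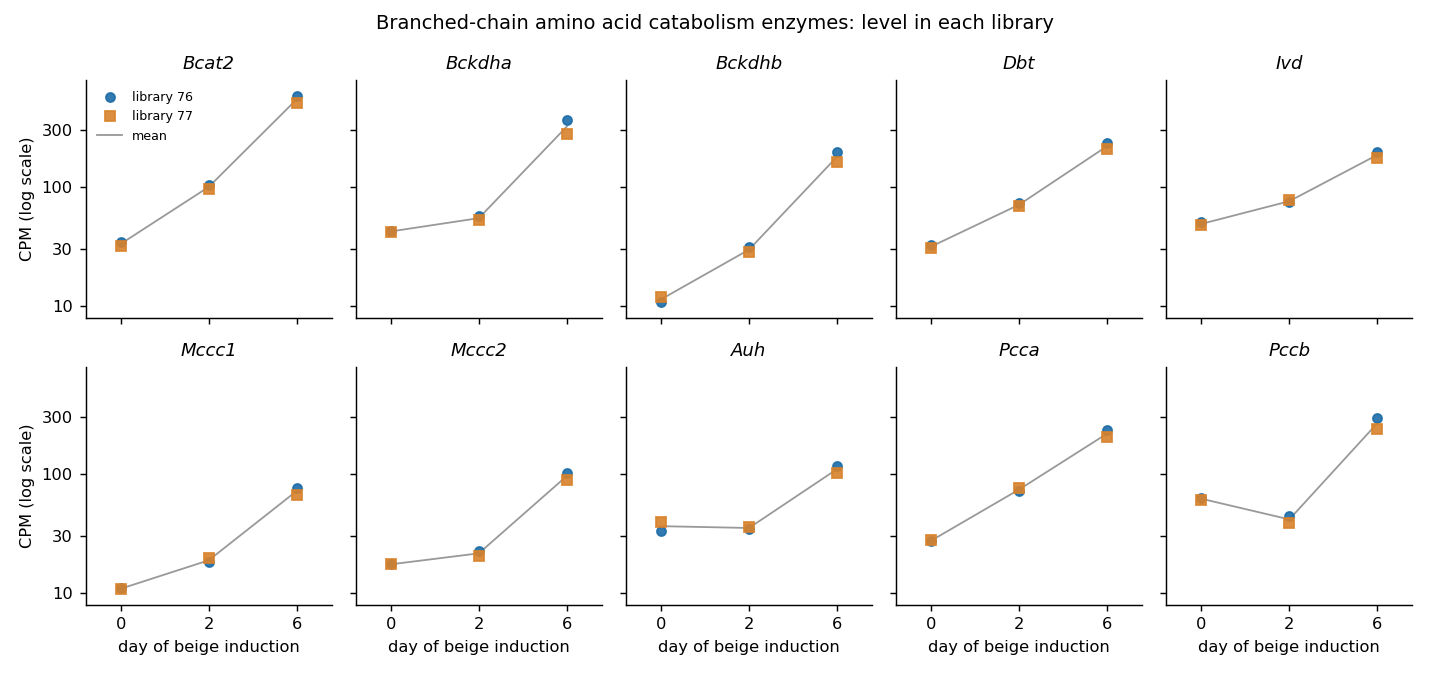
CPM on a log scale (vertical axis) of each enzyme gene at days 0, 2 and 6 (horizontal axis). Circles are library 76, squares library 77 and the grey line joins the day means; all 10 genes are highest at day 6, and Pccb has its lowest level at day 2.

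The first step is carried by Bcat2, the mitochondrial branched-chain aminotransferase, on chromosome 7 from 45570153 to 45589711 (plus strand) in GRCm38. Bcat2 stood at 34.9 and 31.9 CPM at day 0, at 104 and 96.8 CPM at day 2 and at 586 and 507 CPM at day 6. No library of one day overlapped with those of another. How many of all genes separate their days likewise was not counted, so this only describes the values. Bcat2 was 3.01-fold higher at day 2 than at day 0 (log2 change 1.59, SE 0.10) and 5.44-fold higher at day 6 than at day 2 (2.44, SE 0.099). Its cytosolic relative Bcat1, which is no member, went the other way. Bcat1 averaged 13.4 ± 4.54 CPM at day 6, against 83.2 ± 5.82 CPM at day 0, and was lower in each comparison (log2 change -2.64, SE 0.19, at day 6 against day 0). Per kilobase of its principal transcript, Bcat2 was 1.504 and 1.517 times as abundant as Bcat1 at day 0. The ratio was 10.1 and 8.06 in the libraries of day 2, and 216 and 115 in those of day 6. With the union of all annotated exons as the length, Bcat2 lay below Bcat1 at day 0 (0.955 and 0.963).

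The branched-chain keto acid dehydrogenase is built from the E1 subunits Bckdha (alpha) and Bckdhb (beta), which remove the carboxyl group, and the E2 core Dbt, which passes the acyl group to coenzyme A. Bckdha lies on chromosome 7 from 25629946 to 25658981 (minus), Bckdhb on chromosome 9 from 83925145 to 84124240 (plus) and Dbt on chromosome 3 from 116513070 to 116549981 (plus). Bckdha stood at 43.1 and 41.9 CPM at day 0, at 57.2 and 52.7 at day 2 and at 364 and 282 at day 6. Bckdhb stood at 10.9 and 11.9, at 31.4 and 28.3 and at 197 and 163 CPM on the same days. Dbt stood at 32.9 and 30.6, at 73.4 and 69.3 and at 235 and 208 CPM. Each of the 3 subunits had its larger log2 change after day 2. Their days did not overlap, but the share of all genes of which this holds was not counted. Relative to day 0, day 2 was 1.29-fold higher for Bckdha (log2 change 0.37, SE 0.12), 2.62-fold for Bckdhb (1.39, SE 0.12) and 2.25-fold for Dbt (1.17, SE 0.087). From day 2 on the order differed. Day 6 was 5.88-fold above day 2 for Bckdha, 6.02-fold for Bckdhb and 3.10-fold for Dbt.

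The small day 2 change of Bckdha rests on few libraries. Its adjusted p was 0.0251 by edgeR. Leaving out replicate 76 of day 0 gave an adjusted p of 0.0858 by edgeR, leaving out that of day 2 gave 0.131, and the alternatives spanned 0.000191 to 0.131. In addition, 61.7% of the exonic length of Bckdha overlaps B3gnt8 on the opposite strand, and no source used here states the strand setting of the counting. B3gnt8 itself had between 23 and 83 counts per library, against 1017 or more for Bckdha. Counted without strand, reads there would be ambiguous between the 2 genes and set aside, which would lower the count of Bckdha. The level of Bckdha relative to other genes is therefore uncertain. For Bcat2 15.9% of the exonic length overlaps another gene, and for the other members at most 5.60%.

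Leucine's own branch runs through Ivd, which oxidises isovaleryl-CoA, then the carboxylase made of Mccc1, the subunit that carries biotin, and Mccc2, the subunit that transfers the carboxyl group, and then the hydratase Auh. In GRCm38, Ivd lies on chromosome 2 from 118861954 to 118882909 (plus) and Mccc1 on chromosome 3 from 35959312 to 36000678 (minus). Mccc2 lies on chromosome 13 from 99948530 to 100015639 (minus) and Auh on the same chromosome from 52835119 to 52929681 (minus). Ivd stood at 50.5 and 47.8 CPM at day 0, at 75.2 and 77.4 at day 2 and at 198 and 176 at day 6. Mccc1 stood at 11.03 and 10.8, at 18.2 and 19.7 and at 77.02 and 67.5 CPM. Both separated every day from the next, which was likewise not counted over all genes. Mccc2 stood at 17.6 and 17.5 CPM at day 0, at 22.7 and 20.6 at day 2 and at 103 and 89.9 at day 6. Auh, known also as a protein that binds AU-rich RNA, stood at 33.6 and 39.6, at 34.8 and 35.9 and at 118 and 103 CPM, and its day 2 libraries lay within the range of day 0.

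Ivd was 1.55-fold higher at day 2 than at day 0 (log2 change 0.63, SE 0.080) and Mccc1 1.73-fold (0.79, SE 0.099). For Mccc2 the change was 1.24-fold (0.31, SE 0.096), with adjusted p = 0.0211 by edgeR. Leaving out replicate 76 of day 0 or of day 2 ended this call, with edgeR giving an adjusted p of 0.0875 and of 0.127, and the alternatives spanned 0.00356 to 0.127. Auh at day 2 was 0.967 times its level at day 0, with a 95% interval of 0.823 to 1.14 (adjusted p = 0.689 by edgeR). Between day 2 and day 6 the leucine enzymes rose together, to 2.45-fold for Ivd, 3.82-fold for Mccc1, 4.47-fold for Mccc2 and 3.12-fold for Auh. At day 6 they stood 3.80-, 6.62-, 5.52- and 3.02-fold above day 0.

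Propionyl-CoA carboxylase joins Pcca, the subunit that carries biotin, to Pccb, the subunit that places the carboxyl group on propionyl-CoA. Pcca lies on chromosome 14 from 122534324 to 122891100 (plus) and Pccb on chromosome 9 from 100982032 to 101034898 (minus). Pcca stood at 27.5 and 27.9 CPM at day 0, at 72.9 and 76 at day 2 and at 234 and 205 at day 6. Pccb stood at 63.2 and 61.3, at 44.4 and 39.1 and at 297 and 239 CPM. The subunits parted at day 2, with Pcca above and Pccb below its day 0 libraries. Pcca was 2.69-fold higher at day 2 than at day 0 (log2 change 1.43, SE 0.084, adjusted p = 3.06e-06 by edgeR). Pccb fell by 0.58 on the log2 scale (SE 0.11, adjusted p = 0.00218 by edgeR), a 1.49-fold fall, and kept its call in each alternative run (highest adjusted p 0.0426). Day 6 was 6.42-fold above day 2 for Pccb and 2.95-fold for Pcca, which left them 4.302- and 7.94-fold above day 0.

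The ratio of 2 genes within a library does not depend on the scaling between libraries. Per kilobase of principal transcript, Pcca was 0.389 and 0.407 times as abundant as Pccb on day 0, 1.47 and 1.74 times on day 2, then 0.705 and 0.768 times at day 6. The mean ratio was thus 4.04-fold higher at day 2 than at day 0. The Bckdhb to Bckdha ratio was 0.325 and 0.367 at day 0, 0.706 and 0.691 by day 2 and still 0.694 and 0.744 on day 6. The Dbt to Bckdha ratio averaged 0.429 ± 0.0127 at day 0, 0.747 ± 0.0126 at day 2 and 0.397 ± 0.0367 at day 6. Both ratios with Bckdha carry the uncertainty in its level from the overlap with B3gnt8. The Mccc1 to Mccc2 ratio moved least at day 2, and stood at 0.539 ± 0.00635, 0.759 ± 0.0959 and 0.647 ± 0.00329 over the 3 days. Changes of these ratios between days were not tested. With lengths taken from the union of all annotated exons the Pcca to Pccb ratio read 0.236, 0.954 and 0.438 on the 3 days, and its change between days is the same by construction. The Mccc1 to Mccc2 ratio then read 0.159, 0.225 and 0.191, so the size of these ratios depends on the length used.

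**Figure D2:**
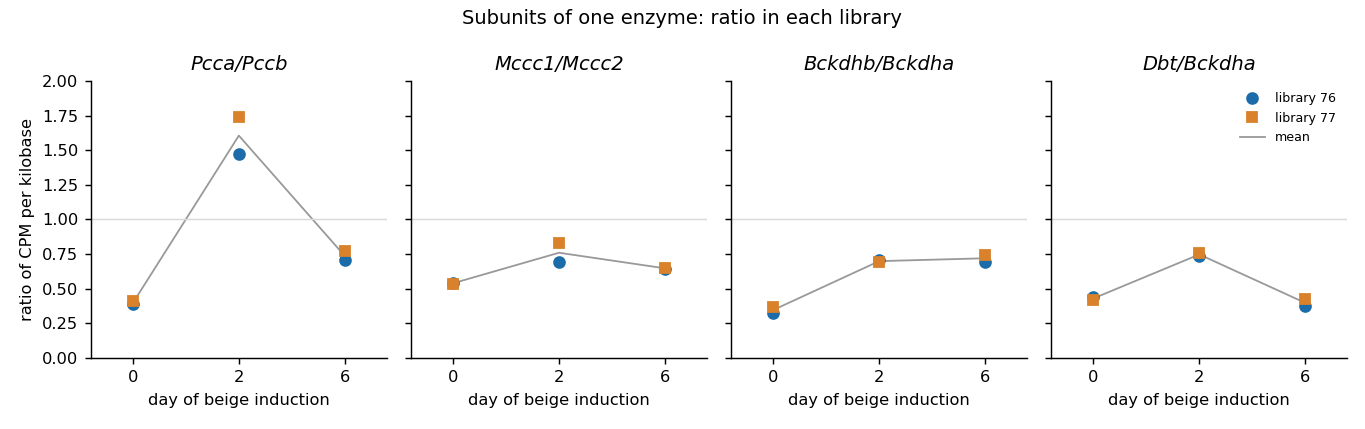
Ratio of CPM per kilobase of principal transcript (vertical axis) between subunits of the same enzyme at days 0, 2 and 6 (horizontal axis), with circles for library 76, squares for library 77 and a grey line through the means. With these lengths the Pcca/Pccb ratio passes 1 at day 2 in both libraries (1.47 and 1.74) and no other ratio does; with the union of exons it reads 0.874 and 1.03.

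The stretches just upstream of the starts of Bcat2 and Bckdhb, which were both up at day 2, and of the carboxylase subunits that parted at day 2 are shown for comparison. They are RefSeq promoter sequences of GRCm38.p6, 191 bases each from position -200 to -10 relative to the annotated start, and run 5′ to 3′ on the gene's strand. Capitals mark the GC-rich word CCCGCCC on either strand.
Bcat2, chr7:45569953-45570143 (plus): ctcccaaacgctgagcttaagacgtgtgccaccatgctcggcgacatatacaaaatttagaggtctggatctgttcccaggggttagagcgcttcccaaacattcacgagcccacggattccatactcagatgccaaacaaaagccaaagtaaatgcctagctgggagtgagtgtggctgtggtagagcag
Bckdhb, chr9:83924937-83925127 (plus): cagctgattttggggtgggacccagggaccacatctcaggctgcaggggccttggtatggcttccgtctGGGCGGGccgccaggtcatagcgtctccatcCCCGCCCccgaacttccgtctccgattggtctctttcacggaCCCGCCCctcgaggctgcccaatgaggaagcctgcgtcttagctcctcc
Pcca, chr14:122534128-122534318 (plus): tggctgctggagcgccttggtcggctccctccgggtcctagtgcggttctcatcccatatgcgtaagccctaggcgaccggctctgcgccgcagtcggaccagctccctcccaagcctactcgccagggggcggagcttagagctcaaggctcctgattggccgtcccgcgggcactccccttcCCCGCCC
Pccb, chr9:101034894-101035084 (minus): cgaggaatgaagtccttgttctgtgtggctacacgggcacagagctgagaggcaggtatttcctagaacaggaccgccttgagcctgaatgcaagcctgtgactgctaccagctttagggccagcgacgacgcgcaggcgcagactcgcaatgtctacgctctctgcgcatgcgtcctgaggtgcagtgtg

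Promoter sequences matched 9 of the 10 members, with 12 promoters from 250 bases before to 50 after a start. CCCGCCC occurred on either strand in 4 of these 12, those of Bckdhb, Pcca, Mccc1 and Auh, and in 25.6% of all 32851 promoters in the table. With so few promoters this count says little about the members. Any link of the word to the changes in RNA was not tested. The words TCAAGGTCA, TGACGTCA, TTGCNNAA and the direct repeat DR1 (AGGTCA repeated after a spacer of 1 base, which shares its half-site with TCAAGGTCA) occurred in none of the 12. They occur in 0.423%, 1.79%, 10.8% and 0.0396% of all promoters, and their absence says only that these letters are not in these windows.

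**Figure D3:**
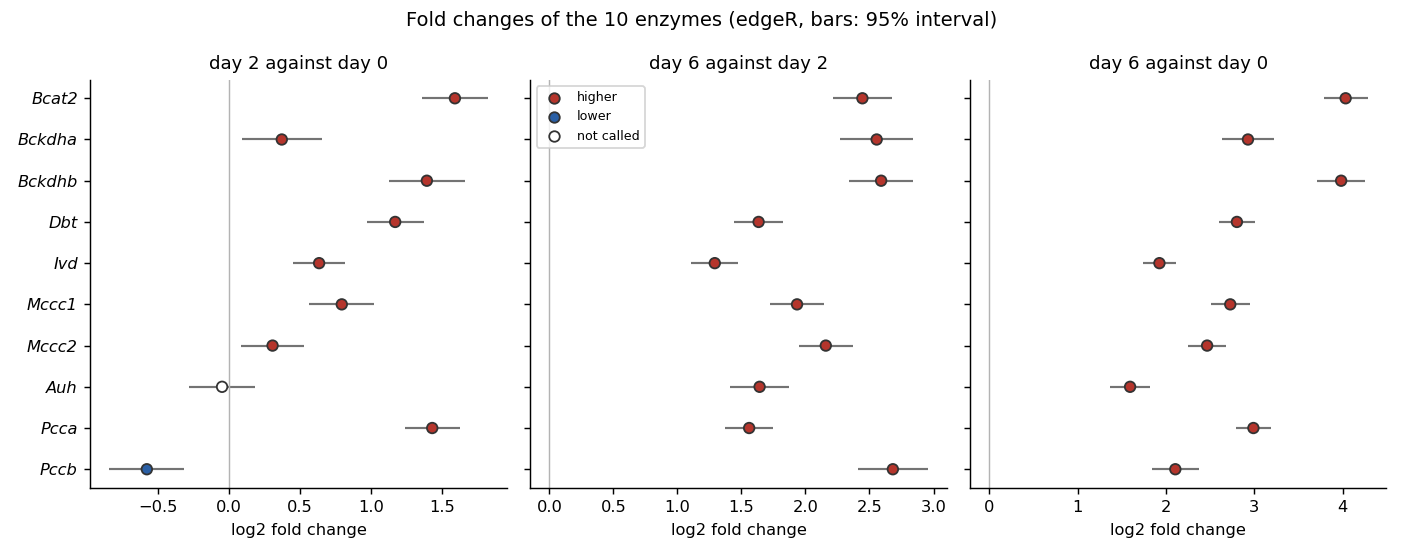
Log2 fold change (horizontal axis) of each enzyme gene (rows) in 3 comparisons, with bars for the 95% interval of the edgeR fit and colour for the call. At day 2 against day 0 the genes spread from -0.58 (Pccb) to 1.59 (Bcat2), while at day 6 against day 2 all lie between 1.29 (Ivd) and 2.68 (Pccb).

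Counted over the table, day 2 against day 0 called 8 of the 10 members higher and 1 lower (edgeR, adjusted p under 0.05), where 33.6% of the 14459 genes tested were called higher and 33.6% lower. The members' median log2 change was 0.71, against 0.00 for all genes tested. At day 6 against day 2 all 10 were called higher, with 38.2% of all genes higher and 27.5% lower, and the medians were 2.05 for the members and 0.12 for all genes. Day 6 against day 0 called all 10 higher as well, beside 35.9% higher and 35.1% lower of all genes, with medians of 2.76 and -0.01. The largest adjusted p of a member was 2.90e-06 by edgeR at day 6 against day 2 and 2.40e-06 at day 6 against day 0. Each comparison shares libraries with the others, so their calls are not independent. The members were chosen with earlier results of these data known, so the counts describe the list and test nothing about it. With library totals in place of TMM the median of all genes became -0.23 at day 6 against day 2 and -0.26 at day 6 against day 0. Calls on the higher side then made up 37.1% of all calls in place of 58.1%, and 38.0% in place of 50.6%.

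The members differed in shape as well as size. Centred on their own means over the 6 libraries, Bcat2 and Bckdhb were most alike, with a root mean square difference of 0.12 in log2 CPM, followed by Dbt and Pcca (0.12). Bcat2 and Auh were least alike (1.02). Mccc1 lay closest to the median profile of the members (0.047) and Bcat2 farthest from it (0.56), with Pccb (0.54) and Bckdhb (0.53) next. Outside the members, the tested genes nearest to that median profile included Mpdu1 (0.045), Ndufs3, Ndufb8, Cox5b, Pex19, Dgkd, Glud1, Suclg1 and Slc25a22 (0.081). Mpdu1 averaged 28.9 CPM at day 0, 50.3 at day 2 and 183 at day 6.

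Per kilobase of principal transcript, Bcat2 had the highest level of the 10 at day 6 with 263 ± 26.8 CPM per kilobase, then Bckdha with 170 ± 30.7, Bckdhb with 122 ± 16.1 and Pccb with 115 ± 17.7. The SDs of Bckdhb and Pccb overlap, and their order was not tested. Mccc1 was lowest on every day, at 4.44 ± 0.0679, 7.70 ± 0.438 and 29.4 ± 2.75 CPM per kilobase. At day 0 the order was different, led by Auh (27.7 ± 3.22) and Pccb (26.8 ± 0.575), with Bcat2 at 16.0 ± 1.03. The SD of Auh covers Pccb, so the order of these 2 is not resolved. Dividing by the union of exons instead put Bckdha above Bcat2 at day 6 (170 and 140 CPM per kilobase) and moved Auh at day 0 down to 3.82, because the annotated exons of Auh span 9580 bases and its principal transcript 1320. Which gene leads thus depends on the length used, and no source used here names the annotation behind the counts. The place of Bckdha is also uncertain because of its overlap with B3gnt8.

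The other 14 enzymes listed for the same route also mostly rose. At day 2 against day 0, 11 were called higher and 3 lower, beside 33.6% of all genes in each direction. At day 6 against day 2, 13 were higher and 1 lower, beside 38.2% and 27.5% of all genes. Day 6 against day 0 also called 13 higher and 1 lower, beside 35.9% and 35.1%. The median log2 change of the 14 enzymes was 0.91, 1.81 and 2.69 in this order. The largest rise at day 6 was that of Aldh6a1, which oxidises methylmalonate semialdehyde in the valine branch, with 711 ± 109 CPM against 36.0 ± 0.937 CPM at day 0 (19.8-fold). Hibch, also of the valine branch, was 18.0-fold higher, with 283 ± 59.7 CPM at day 6 against 15.7 ± 0.335 at day 0. Dld, the E3 subunit that the branched-chain complex shares with pyruvate dehydrogenase, was 2.63-fold higher at day 2 and 9.60-fold higher at day 6 than at day 0.

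Like Pccb, 2 of these enzymes dipped first. Acadsb, the isoleucine-branch dehydrogenase, stood at 109 ± 3.47 CPM at day 0, 63.3 ± 5.86 at day 2 and 210 ± 17.9 at day 6. Oxct1, which lets cells use the acetoacetate that leucine yields, stood at 138 ± 5.91, 100.5 ± 3.51 and 365 ± 19.5 CPM. Both were called lower at day 2 (adjusted p = 0.000113 and 0.000888 by edgeR) and higher at day 6 than at day 0. The next steps after Pcca and Pccb, the epimerase Mcee and the mutase Mut, showed no dip and were 1.93- and 1.95-fold higher at day 2 and 6.99- and 6.70-fold higher at day 6 than at day 0.

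Of 14 regulators, cofactor genes and transporters, 9 were called higher and 1 lower at day 2 against day 0, beside 33.6% of all genes in each direction. At day 6 against day 2, 8 were higher and 3 lower, beside 38.2% and 27.5% of all genes, so this count says little about the list. At day 6 against day 0, 11 were called higher and 3 lower, beside 35.9% and 35.1%. Bckdk, the kinase that switches the dehydrogenase off, was 1.93-fold higher at day 6 than at day 0, with 67.4 ± 5.62 CPM against 35.0 ± 1.12. Ppm1k, the phosphatase that switches it on, was 3.10-fold higher, with 20.7 ± 3.09 CPM at day 6 against 6.66 ± 0.561 at day 0, and at day 2 had 6.97 ± 0.0556 CPM (adjusted p = 0.721 by edgeR). Slc25a44, the carrier that takes branched-chain amino acids into mitochondria, was 2.02-fold higher at day 2 and 5.93-fold higher at day 6 than at day 0. The cell surface transporters of large neutral amino acids were mixed. Slc7a5 had 40.5 ± 9.48 CPM at day 6 against 237 ± 29.8 at day 0 (log2 change -2.55, SE 0.16). Its partner Slc3a2 fell by 0.74 on the log2 scale at day 6 against day 0, and Slc7a8, which was 1.53-fold higher at day 2 than at day 0, fell by 1.30. Slc43a1 and Slc43a2 were 1.54- and 2.45-fold higher at day 6 than at day 0 (adjusted p = 0.000788 and 0.00011 by edgeR). Hlcs, which attaches biotin to carboxylases such as Pcca and Mccc1, was 1.76-fold higher at day 2 and 1.87-fold higher at day 6 than at day 0.

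**Figure D4:**
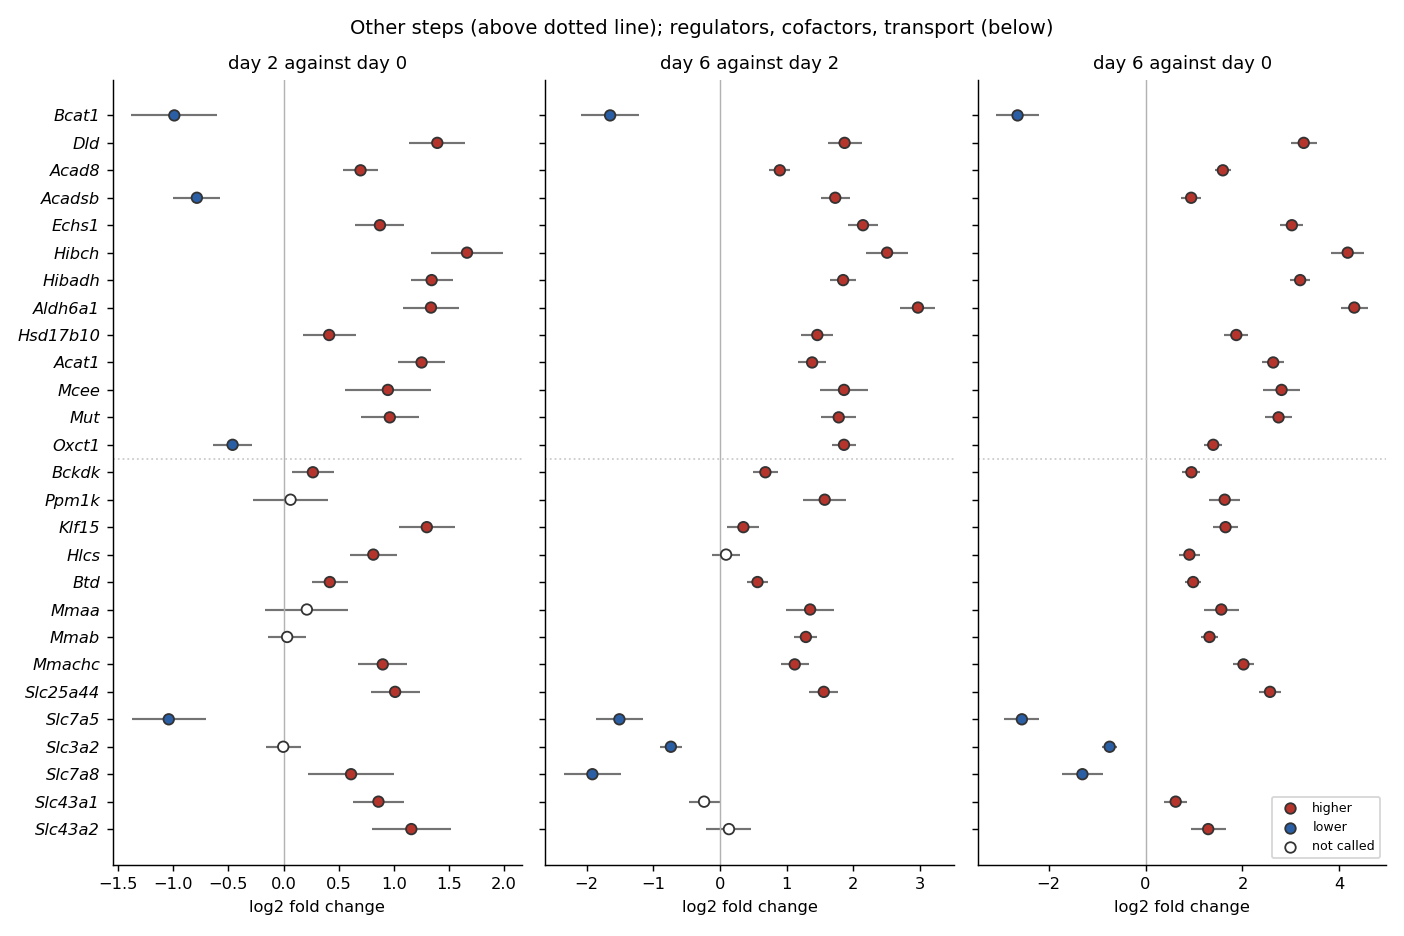
Log2 fold change (horizontal axis, scaled separately in each panel) of 13 other enzymes of the route (above the dotted line) and of 14 regulators, cofactor genes and transporters (below it), with 95% intervals of the edgeR fit. Bcat1 and Slc7a5 were called lower in all 3 comparisons, and Acadsb and Oxct1 in day 2 against day 0 alone.

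Markers of cell types and of mitochondria moved over the same days, and their part in the enzyme changes was not tested. The summed level of 8 adipocyte markers was 86.9 and 107 CPM on day 0, 4119 and 3831 CPM on day 2, then 32156 and 26432 CPM on day 6. Fabp4 made up most of the later sums, with means of 3020 CPM at day 2 and 18135 CPM at day 6. Lep had too few counts to be tested, and the other 7 were called higher at day 6 against day 0. The 7 progenitor markers summed to 1953 and 2002, 1206 and 1395, and 742 and 1106 CPM. The 7 mural markers, genes of contractile vessel-wall cells and myofibroblasts, summed to 2618 and 2577, 60.5 and 63.6, and 462 and 637 CPM. Acta2 (1433 CPM) and Tagln (958 CPM) made up most of the mural sum at day 0. At day 6 against day 0, 6 progenitor markers were called lower and none higher. Of the mural markers 5 were called lower and 2, Cspg4 (6.52-fold) and Mcam (6.02-fold), higher. These calls stand beside 35.9% of all genes called higher and 35.1% lower. Endothelial (6 genes), macrophage (7), skeletal muscle (6), Schwann (4) and epithelial and mesothelial markers (5) summed to at most 119 CPM in any library, with Pax7 and Epcam at 0 in all. Genes of the mitochondrial genome made up 0.502% and 0.555% of gene counts on day 0, 1.13% and 1.29% on day 2, then 3.88% and 3.14% on day 6. The 14 citrate cycle genes were all called higher in each comparison. Of all genes, 33.6% were called higher at day 2 against day 0, 38.2% at day 6 against day 2 and 35.9% at day 6 against day 0. The median log2 changes of the citrate cycle genes were 0.86, 1.97 and 2.88 in this order, beside the members' 0.71, 2.05 and 2.76. The members summed to 26.5% and 25.5% of the citrate cycle total at day 0, to 18.3% and 18.6% at day 2 and to 18.1% and 18.4% at day 6.

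At day 6 library 76 was higher than library 77 in all 10 members, with 2410 against 2040 CPM in sum, and it also had the higher adipocyte marker and mitochondrial genome values and the lower progenitor values. Its macrophage markers summed to 119 CPM, against 50.6 CPM in library 77; the part of any of these in the enzyme values was not tested. No member's call at day 6 was lost without either library.

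**Figure D5:**
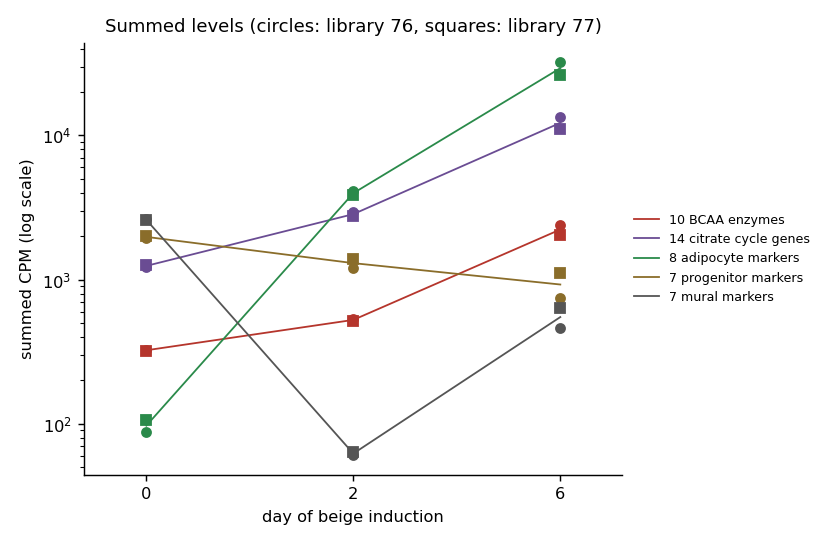
Summed CPM (vertical axis, log scale) of the 10 enzyme genes, the citrate cycle genes and 3 marker lists at days 0, 2 and 6 (horizontal axis), circles for library 76, squares for library 77 and lines through the means. The sums of the enzymes, the adipocyte markers and the citrate cycle genes climb from day to day. The progenitor sum declines and the mural sum is lowest at day 2, though not every marker of these lists does the same.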

How the data were processed

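The authors deposited raw read counts, 1 column a library, although the column names say RPKM: the values are whole numbers and close with HTSeq's 5 summary lines. TopHat2 2.0.13 (alignment), HTSeq 0.9.1 (counting) and the builds mm10 and GRCm38 come from the submitters' processing notes; no source used here gives the counting settings, strand or annotation. The summary lines were left out of every fit and held 2.62% to 3.23% (outside features), 4.40% to 4.91% (ambiguous) and 4.16% to 9.05% (not unique) of each library's total. Multi-mapping and overlapping reads were thus set aside. Intervals cover the spread between libraries as edgeR estimates it, and a count of 0 allows up to 3 counts.

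Titles gave each library's day. All 6 entered 1 fit of edgeR 4.0.16 (R 4.3.3), with TMM scaling, filterByExpr, a mean per day, 3 residual degrees of freedom and quasi-likelihood F tests, adjusted by Benjamini-Hochberg across the 14459 genes (threshold 0.05). The steps were tested on simulated counts. Alternatives were other scalings and filters, DESeq2 1.42.0, limma 3.58.1, fits of 2 days, a replicate block and leaving out each library. Within each day the libraries' counts differed beyond sampling noise (chi-square per degree of freedom 6.75, 7.53 and 26.3). Same-numbered libraries deviated together only weakly between days, across genes (Pearson's r 0.109, 0.112 and 0.213, Spearman's 0.059, 0.055 and 0.176). This does not settle whether 76 and 77 pair libraries. The fit reported has no block, and the fit with a replicate block is given as an alternative.

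Members and lists were chosen with earlier results of these data known. The list symbol Pc matched Pcx through RefSeq synonyms. All members and any listed pathway gene could be named, and the 10 nearest genes by root mean square difference of centred log2 CPM (prior count 2); of both groups some are not reported here. Coordinates and lengths are from GENCODE M21 (GRCm38). Per-kilobase levels use the longest transcript tagged CCDS or principal, or the union of exons, an alternative added after the data were seen.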

Additional observations from a re-analysis of the deposited data

How the results depend on the processing

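Over the 14 alternatives, 414 of 420 values of the 10 members in 3 comparisons kept their direction and their side of the threshold. Of the others, 4 were the lost day 2 calls of Bckdha and Mccc2 without replicate 76 of day 0 or of day 2, given above. The remaining 2 were Auh at day 2 against day 0, whose log2 change of -0.05 became 0.062 with library totals and 0.22 without replicate 77 of day 0 (-0.16 to 0.22 over the libraries left out, never called). Members called at day 2 numbered 7 to 9 when 1 library was left out. With the replicate number as a block, 9, 10 and 10 members were called in the order of the comparisons above and 9847, 9669 and 10356 genes in all, and no member's call changed. Genes called of all tested stayed between 8140 and 10423 at day 2 against day 0, between 8115 and 9912 at day 6 against day 2 and between 8888 and 10571 at day 6 against day 0. Where 1 library was left out, its day had a single library, which is assumed to vary like the others. With 2 libraries a day, small changes such as those of Bckdha and Mccc2 at day 2 are at the limit of what these libraries resolve.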

Other observations

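A further list held 9 genes of the sister keto acid dehydrogenases (pyruvate and 2-oxoglutarate dehydrogenase) and of other biotin carboxylases. At day 2 against day 0, 8 were called higher and none lower by edgeR, beside 33.6% of all genes in each direction. All 9 were called higher at day 6 against day 0, beside 35.9% of all genes higher and 35.1% lower. Their median log2 change at day 6 against day 0 was 4.17 beside 2.76 for the members and -0.01 for all genes tested; the difference was not tested. Pcx, the pyruvate carboxylase, had 4532 ± 785 CPM at day 6, against 42.5 ± 3.62 CPM at day 0 (107-fold higher, the largest rise of this list). Acacb, the mitochondria-associated acetyl-CoA carboxylase, had 6.50 ± 0.160 CPM at day 2, against 8.08 ± 0.515 at day 0 (adjusted p = 0.0578 by edgeR), and 523 ± 64.9 CPM at day 6. The smallest change at day 6 against day 0 was that of Pdha1, the pyruvate dehydrogenase E1 alpha subunit, with a log2 change of 2.51.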
